A study of Homo sapiens with 12 samples.

Results

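The alpha- and beta-globin loci were examined in lists of SMC1 and CTCF peaks from HAP1 cells, a near-haploid human line derived from a chronic myeloid leukaemia. The peaks were those whose summit, the base of highest read pileup, lay in chr11:5200000-5330000 for the beta locus or chr16:60000-400000 for the alpha locus on hg19. They numbered 90 of 265912 SMC1 and CTCF peaks, 29 of SMC1 and 61 of CTCF. Overlapping peaks of an antibody were merged over genotypes into 13 SMC1 regions of 38018 and 18 CTCF regions of 53945. The genes at the centre of both windows were HBB, HBD, HBG1, HBG2 and HBE1 of the beta cluster and HBA1, HBA2 and HBZ of the alpha cluster.

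Chromatin immunoprecipitation sequencing (ChIP-seq) was done for SMC1, which belongs to the cohesin ring, for CTCF, or with non-specific IgG. Each was used on 4 genotypes: unedited (wild-type) cells; ΔWAPL, 1 clone without the cohesin release factor WAPL, whose gene holds a Blasticidin resistance cassette; ΔSCC4, without the SCC4 part of the loader of cohesin, with a Puromycin cassette; and ΔWAPL/ΔSCC4, made by disrupting SCC4 in the ΔWAPL clone. Where 4 values stand in a row without names, wild-type comes first, then ΔWAPL, then ΔSCC4 and last ΔWAPL/ΔSCC4. No treatment was given, and all 4 genotypes share the HAP1 background. Each of the 12 libraries was the only one of its group, so no test between genotypes was possible and every number describes these libraries only. Clone, culture and genotype cannot be told apart.

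Haemoglobin is built from alpha-type and beta-type globin chains, whose genes lie in separate clusters in which embryonic, foetal and adult genes follow each other in the order of their use during development. In erythroid cells the beta cluster is driven by a distant locus control region upstream of HBE1, and the alpha cluster by enhancers in introns of the neighbouring gene NPRL3. Sites bound by CTCF flank both clusters. Cohesin is loaded onto DNA with the help of SCC2/SCC4, gathers DNA into loops, is halted at CTCF sites most often where their motifs face each other, and is released by WAPL. HAP1 cells are not erythroid. Peak lists hold no RNA, so the state of the globin genes in these cells was not measured.

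The sequences of the 3 CTCF regions of the beta locus are shown first, because the genotypes differed at them and only 2 of the 3 carried a CTCF motif. Each line gives 101 bases of the hg19 plus strand around the summit of the strongest CTCF peak, in lower case, with the motif match in capitals. The first region lay on the 3′ side of the cluster, between OR51V1, an olfactory receptor gene, and HBB, with the non-coding gene ENSG00000224091 nearest. The second lay at the 3′ end of HBB, in a non-coding exon of ENSG00000285498. The third lay on the side of the locus control region. The outer regions lie at the positions known in the literature as 3′HS1 and HS5, constitutive CTCF sites of this locus.
HBB 3′ distal region, chr11:5226139-5226239: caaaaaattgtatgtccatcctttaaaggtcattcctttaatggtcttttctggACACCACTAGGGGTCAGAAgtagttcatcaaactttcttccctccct
HBB end region, chr11:5246520-5246620: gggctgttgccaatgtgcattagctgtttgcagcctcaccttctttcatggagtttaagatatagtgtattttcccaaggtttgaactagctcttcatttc
HBE1 5′ distal region, chr11:5312655-5312755: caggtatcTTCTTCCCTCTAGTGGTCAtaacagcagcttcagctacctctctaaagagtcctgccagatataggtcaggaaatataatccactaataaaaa

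The motif was a matrix of 19 positions learned from wild-type CTCF summits on other chromosomes, with the consensus NNGCCACCAGGGGGCGCNN, in which N marks a position where no base reached 50% of the sites. Both strands were searched within 50 bp of the summit, and a window matched when its best score passed the score that 5% of windows 1000 bp away from CTCF summits reached. Of 16138 wild-type CTCF peaks on chromosomes not used for learning, 80.3% held a match, as did 14 of the 18 CTCF regions of the globin loci. At the HBB 3′ distal region the match, chr11:5226193-5226211, lay outside canonical transcripts and read on the plus strand, with a log2 score of 11.5. At the HBE1 5′ distal region the match, chr11:5312663-5312681, lay on the minus strand with a score of 16.1, inside an intron of a long transcript annotated across this stretch (ENSG00000239920). The 2 matches lay 86.5 kb apart with the globin genes between them and faced each other. They lay 22.1 kb beyond the HBB start and 21.5 kb before the HBE1 start along these genes, both of which are transcribed from the minus strand. At the HBB end no match was found, and the best score over the whole region of 586 bp was -2.12 on the same scale.

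CTCF was present at all 3 beta regions in 3 of the 4 genotypes. At the HBB 3′ distal region the summit held 10 reads in wild-type cells, 20 reads without WAPL and 26 reads without both proteins, and ΔSCC4 had no listed peak. At the HBE1 5′ distal region the 4 genotypes held 32, 48, 15 and 36 reads. At the HBB end they held 25, 30, 32 and 26 reads. The ΔSCC4 library was thus lowest, or had no peak, at the regions with a motif and was highest at the region without one.

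These reads are whole numbers recovered from the deposited fold enrichment and −log10 p. For comparisons between genotypes they were divided by the genome-wide average pileup of the same library, which was 1.08, 1.37, 1.22 and 1.22 reads for CTCF and 1.58, 1.59, 1.67 and 1.54 reads for SMC1. On this scale the CTCF signal of the HBE1 5′ distal region in ΔSCC4 cells was 0.415 of that in wild-type cells, with a 95% exact interval of 0.209 to 0.789 for counting error only. Only 1.85% of the 35819 CTCF regions with peaks in both libraries had a lower ratio, and the median of all was 0.802. In ΔWAPL/ΔSCC4 cells, which also lack SCC4, the signal was 1.00 of wild-type (0.604 to 1.66). At the HBB 3′ distal region the ΔWAPL/ΔSCC4 signal was 2.31 of wild-type (1.08 to 5.37), above 99.3% of the 40048 regions compared. By fold enrichment this ratio was 1.86. The wild-type peak there held 10 reads, where 6 was the lowest pileup listed at the average background. The ΔWAPL ratio there was 1.58 (0.707 to 3.79), an interval that spans 1. At the HBB end all ratios to wild-type lay between 0.925 and 1.13 and every interval included 1. Of the beta ratios to wild-type, 2 had an interval that excluded 1. These were HBE1 5′ distal in ΔSCC4 and HBB 3′ distal in ΔWAPL/ΔSCC4 cells. The intervals were not adjusted for the number of ratios compared, and the spread between cultures is unknown.

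SMC1 was listed nowhere in the beta window in wild-type or ΔWAPL cells. The SMC1 peak nearest to HBB lay 101183 bp away in wild-type and 101219 bp away in ΔWAPL cells. ΔSCC4 cells had 1 SMC1 peak, at the HBB end, with 18 reads and a fold enrichment over the local background of 6.86. ΔWAPL/ΔSCC4 cells had all 3, with 14 reads at the HBB 3′ distal region, 11 at the HBB end and 14 at the HBE1 5′ distal region. The folds there were 5.74, 4.72 and 5.90. All 4 of these SMC1 peaks shared bases with a CTCF peak of their own library.

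The beta locus therefore held SMC1 peaks only in the libraries of the genotypes without SCC4. A region with SMC1 in ΔSCC4 and ΔWAPL/ΔSCC4 cells but in neither other genotype was found once among the 13 SMC1 regions of the globin loci, against 0.416% of all SMC1 regions. Regions with SMC1 in ΔWAPL/ΔSCC4 cells alone numbered 2 of 13, against 6.91% of all. Of the 8 SMC1 regions of ΔWAPL/ΔSCC4 cells in both loci, 2 had no peak in ΔSCC4 cells, against 54.6% of all ΔWAPL/ΔSCC4 regions. All 4 peaks were weak. At the average background the lowest pileup listed as an SMC1 peak was 9 reads in each genotype, so a site with fewer reads could not appear in a list, and its absence there does not show that SMC1 was absent. At a −log10 q of at least 10 no SMC1 peak remained in the beta window in any genotype.

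The HBB end region differed in shape from its neighbours. Its CTCF intervals were 492 to 586 bp wide, against 223 to 314 bp at the HBB 3′ distal and 240 to 392 bp at the HBE1 5′ distal region. The CTCF summits of the 4 genotypes lay over 153 bp, compared with 26 bp at both other regions. The summit lay 150 bp past the HBB 3′ end in wild-type cells, 99 bp past it in ΔWAPL and 124 bp past it in ΔSCC4, while in ΔWAPL/ΔSCC4 cells it lay inside the last bases of the gene. It was the only CTCF summit of any genotype inside one of the 8 globin genes. The SMC1 summits lay 66 bp past the end in ΔSCC4 and 43 bp past it in ΔWAPL/ΔSCC4 cells. Every 65 bp stretch of the region, the length of the reads, occurs once in hg19. None of the 4 IgG lists had a peak in the beta or the alpha window.

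**Figure D1:**
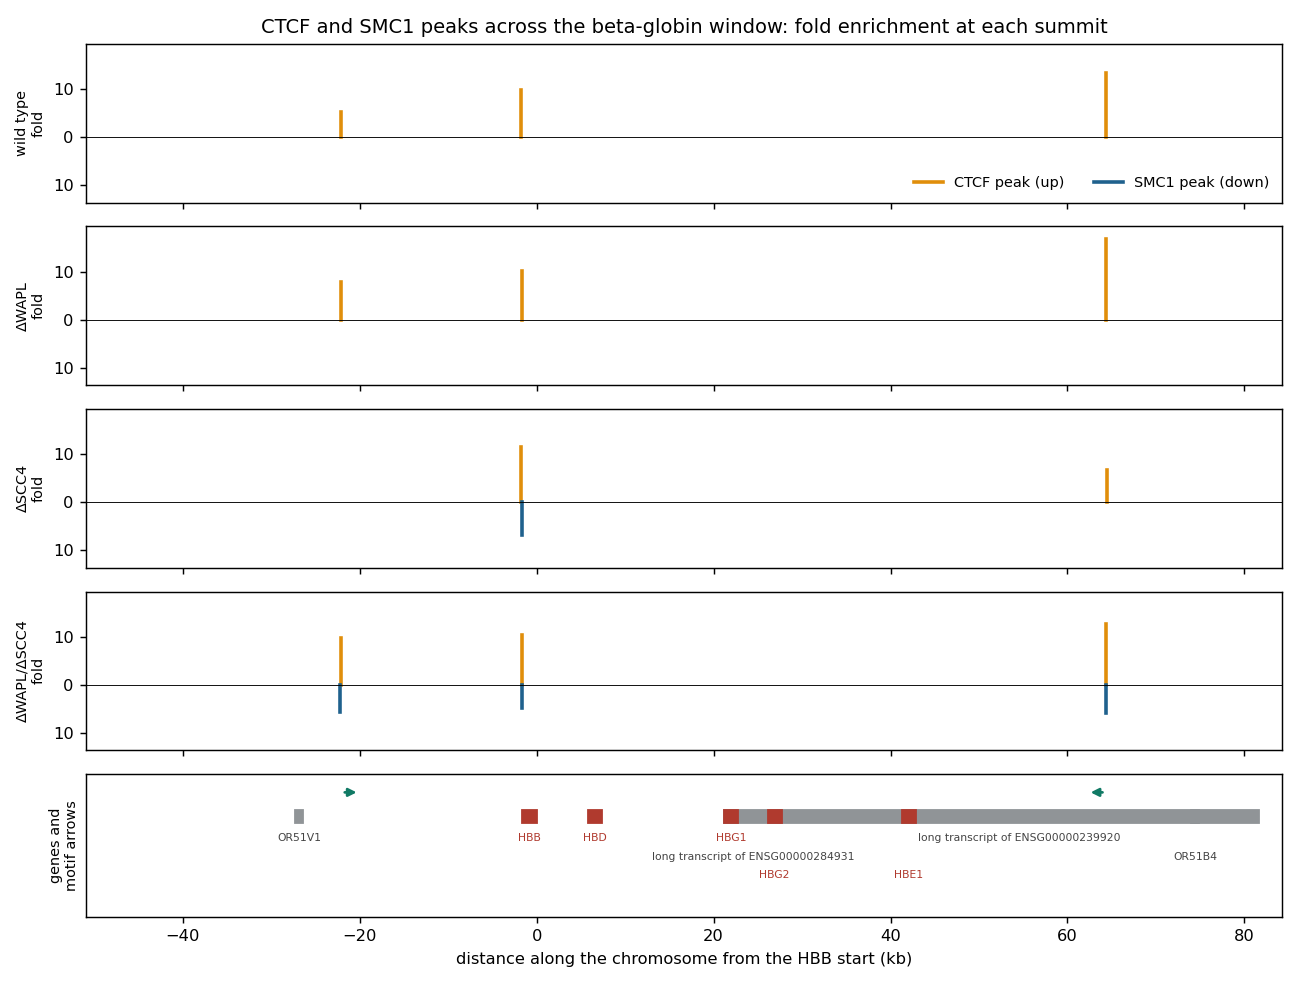
Peaks of CTCF (drawn upwards) and SMC1 (drawn downwards) in the 130 kb of the beta window, 1 panel per genotype, with the fold enrichment at the summit on the vertical axis and the distance from the HBB start along the chromosome, in kb, on the horizontal axis. The lowest panel shows canonical coding transcripts (globin genes in red, others and long transcripts annotated across the cluster in grey) and the CTCF motif matches as arrows in their reading direction. CTCF stood at 3 places in each genotype but ΔSCC4, which had 2, and SMC1 appeared in ΔSCC4 at the HBB end and in ΔWAPL/ΔSCC4 at all 3.

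The alpha window held more sites. CTCF had 13, 12, 10 and 15 peaks, or 38.2, 35.3, 29.4 and 44.1 per Mb. The whole lists held 14.2, 15.1, 12.4 and 15.7 per Mb. SMC1 had 5, 10, 5 and 5 peaks in the alpha window, or 14.7, 29.4, 14.7 and 14.7 per Mb, with 6.08, 11.2, 4.19 and 8.73 per Mb over the whole lists. Of these SMC1 peaks, 5 of 5, 8 of 10, 5 of 5 and 5 of 5 shared bases with CTCF in the matching list. Over the whole lists these shares were 94.5%, 81.6%, 95.2% and 93.5%.

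The motif matches of the alpha locus are shown because their directions change across the globin genes. Each line gives the match in capitals with 5 bases on each side in lower case, 5′ to 3′ in the reading direction of the motif, for the sites that also passed the score reached by only 1% of the distant windows. At the telomeric end the best match over the whole region scored 24.3, also on the minus strand but farther from the summit than the one shown, which scored 12.2. From the telomere inwards these are a site near the end of the chromosome, a site in an intron of RHBDF1, a gene for an inactive rhomboid protein, 3 sites in introns of NPRL3 named A, B and C, sites at the start and past the end of HBQ1, a theta-globin gene, a site past the end of LUC7L, a splicing factor gene, and a site in a UTR of AXIN1, a Wnt pathway scaffold gene.
Telomeric end, chr16:61021-61039, minus strand: cctagCTGCCAGCAGGCGGCGTGCcacca
RHBDF1, chr16:115839-115857, plus strand: cgtagTGACCACCAGGTGACGCCAcgcgc
NPRL3 A, chr16:147057-147075, minus strand: cagcaTGGCCACCAGGGGGCAGCAgaggc
NPRL3 B, chr16:157201-157219, plus strand: tttaaTATCCACTAGGTGGCGCTGggttg
NPRL3 C, chr16:167927-167945, plus strand: aagttCTGCCACCAGGGGGAGTTGgggcc
HBQ1 start, chr16:230401-230419, minus strand: tcccgCGGCCTCCAGGGGGCGCCGcgccg
HBQ1 end, chr16:231570-231588, minus strand: ggctcGCGCCGGGAGGGGGCGCTGttccc
LUC7L end, chr16:238852-238870, minus strand: tctggCATCCAGTAGATGGCAGGGcactt
AXIN1 end, chr16:337532-337550, minus strand: aggctAGGCCAGCAGGGGCTGCCCgagtc

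The highest scores were 25.0 at NPRL3 A and 23.8 at the HBQ1 start, whose match had 14 of the 15 defined consensus letters. Before HBZ 3 of 5 such sites read towards the globin genes, and after HBA1 4 of 4 did. With the matches that passed only the 5% score these were 5 of 7 and 4 of 5. NPRL3 B and C, on the side of the enhancers, thus faced the sites at HBQ1 and LUC7L across the alpha genes. No CTCF site of any genotype with a match lay between the HBZ start and the HBA1 end. Weaker matches, with scores of 5.07 to 6.34, lay in POLR3K, in front of HBZ and in FAM234A. The FAM234A match was the one after HBA1 that read away from the globin genes, and so did a stronger match elsewhere in that region, with a score of 15.4. Those in POLR3K and in front of HBZ belonged to CTCF regions seen in ΔWAPL/ΔSCC4 cells alone. Such regions were 2 of the 18, against 7.07% of all CTCF regions. The 2 regions near the lncRNA gene WASIR2 and a region in an intron of AXIN1 had no match within 50 bp of the summit.

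**Figure D2:**
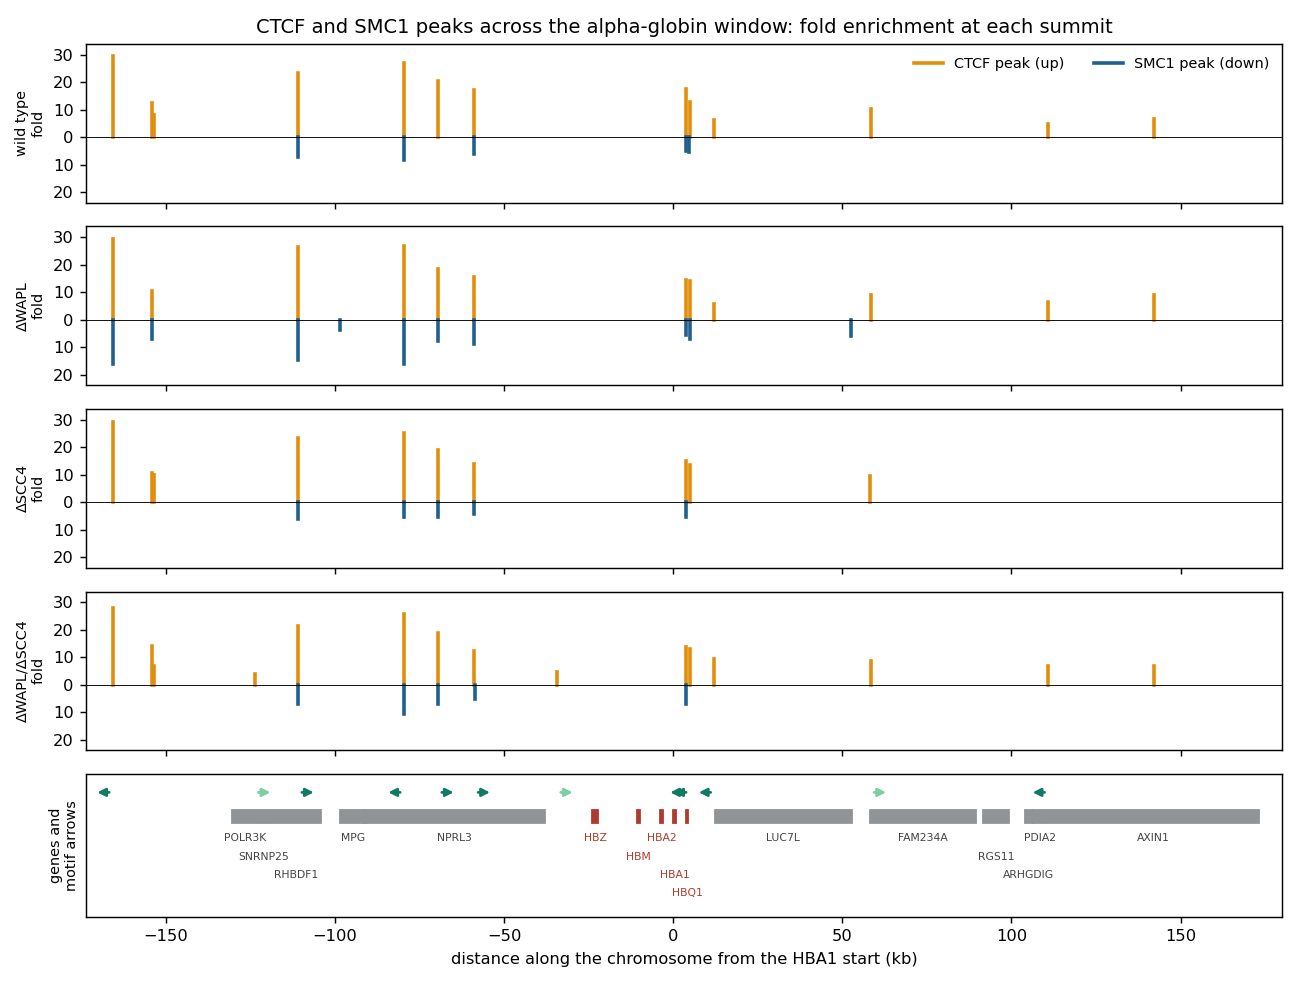
Peaks of CTCF (upwards) and SMC1 (downwards) in the 340 kb of the alpha window, 1 panel per genotype, with fold enrichment at the summit against the distance from the HBA1 start in kb. Arrows in the lowest panel give the direction of the CTCF motif matches, dark where they also passed the 1% score, and the axis runs slightly past the window on both sides. ΔWAPL cells had 10 SMC1 peaks and each other genotype 5, and SMC1 stood at NPRL3 and at HBQ1 but not between them.

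None of the 8 globin genes contained an SMC1 summit in any genotype, and none had an SMC1 or CTCF summit within 1 kb of its start. HBA1, an adult alpha gene, lay 2851, 2938, 2840 and 2883 bp from the nearest SMC1 summit. HBA2, its near-identical copy, lay 6663, 6750, 6652 and 6695 bp away. HBZ, the embryonic alpha gene, lay 25870, 25957, 25859 and 25902 bp away. In each case that nearest peak was the one at HBQ1. The CTCF peak in front of HBZ, seen in ΔWAPL/ΔSCC4 cells with 12 reads, lay 10242 bp from the gene. It lay 326 bp from the start of a longer HBZ transcript in the annotation.

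In wild-type and ΔWAPL cells the beta genes lay farther from SMC1 than the alpha genes did. HBB was 101183 and 101219 bp away in these, but 66 and 43 bp away in ΔSCC4 and ΔWAPL/ΔSCC4 cells. HBD, a minor adult gene, was 108557 and 108593 bp away in wild-type and ΔWAPL cells but 7440 and 7417 bp away in ΔSCC4 and ΔWAPL/ΔSCC4 cells. The foetal genes HBG1 and HBG2 lay between 123988 and 126168 bp from SMC1 in wild-type and ΔWAPL cells, and between 22848 and 27790 bp away in the other genotypes. HBE1, the embryonic beta-type gene, lay 111004, 110991, 42947 and 21510 bp away.

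Mapping limits what the lists could show inside some of these genes. Of the 65 bp stretches of HBA1 and HBA2, 29.9% and 29.2% occur once in hg19, and each of the rest has 2 copies. For HBG1, HBG2 and HBZ the shares were 51.9%, 52.0% and 44.2%, while HBB, HBD, HBE1 and HBQ1 were unique throughout. The aligner places a read that fits several places equally well at one of them, and no further filter on such reads was given. The regions at the telomeric end and near WASIR2 were also partly repeated, with 27.6% to 55.0% of stretches found once. All other regions of both loci were unique throughout.

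At HBQ1 both proteins met at a globin gene. The CTCF summit lay 40, 67, 51 and 68 bp before the HBQ1 start and held 123, 98, 102 and 104 reads. The SMC1 summit lay 86, 1, 97 and 54 bp from the HBQ1 start and held 17, 27, 19 and 24 reads. Over the average of its library the SMC1 signal was 10.8, 16.9, 11.4 and 15.6. The ΔWAPL ratio to wild-type was 1.57 (0.826 to 3.07), and the ΔSCC4 ratio was 1.05 (0.518 to 2.16), so these differences were within counting error. The CTCF signal was lower than in wild-type cells in each knockout, with ratios of 0.630 without WAPL (0.479 to 0.829), 0.734 without SCC4 (0.559 to 0.962) and 0.752 without both (0.573 to 0.984). Most CTCF regions were lower too, with medians over all regions of 0.829, 0.802 and 0.921. Of all regions 10.8%, 34.8% and 17.5% had a lower ratio than the HBQ1 start. The local background at this place was among the highest of the alpha CTCF regions, at 5.84 to 6.62 reads. By the deposited fold enrichment the HBQ1 start ratios were 0.821, 0.845 and 0.781.

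At the HBQ1 end, 1.17 kb further on, CTCF held 90, 96, 93 and 99 reads. SMC1 was listed there with 18 reads in wild-type and 34 in ΔWAPL cells, and not in ΔSCC4 or ΔWAPL/ΔSCC4 cells. This was the only SMC1 region of wild-type cells in either locus without a peak in ΔSCC4 cells, 1 of 5, against 39.6% of all wild-type SMC1 regions.

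At the alpha sites with SMC1 in both wild-type and ΔWAPL cells, the ΔWAPL library held more of it. At RHBDF1 the summit held 23, 75, 17 and 22 reads. At NPRL3 A it held 28, 77, 16 and 38 reads. At NPRL3 C it held 19, 34, 12 and 13 reads. At NPRL3 B no peak was listed in wild-type cells, and the other genotypes held 31, 16 and 18 reads. ΔWAPL was the highest library at each of these places, and ΔSCC4 the lowest of those with a peak.

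The ΔWAPL to wild-type ratio of SMC1 signal was 3.23 at RHBDF1 (2.00 to 5.40), 2.72 at NPRL3 A (1.75 to 4.36), 1.77 at NPRL3 C (0.982 to 3.29) and 1.87 at the HBQ1 end (1.03 to 3.52). The intervals of RHBDF1, NPRL3 A and the HBQ1 end excluded 1. All 5 regions with SMC1 in both genotypes were at least 1.5-fold higher in ΔWAPL cells, against 56.8% of all such regions, and their median ratio of 1.87 stood beside 1.61 for all 17290 regions. RHBDF1 was above 95.1% of them. The size of this difference depended on the scale. The local background at RHBDF1 was 4.14 reads in ΔWAPL and 2.31 in wild-type cells. By the deposited fold enrichment, 7.25 in wild-type and 14.8 in ΔWAPL cells, the ratio at RHBDF1 was 2.04, and it was 1.98 at NPRL3 A, 1.42 at NPRL3 C, 1.08 at the HBQ1 start and 1.32 at the HBQ1 end. On that scale 2 of the 5 regions were at least 1.5-fold higher, against 26% of all, and the median was 1.42.

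**Figure D3:**
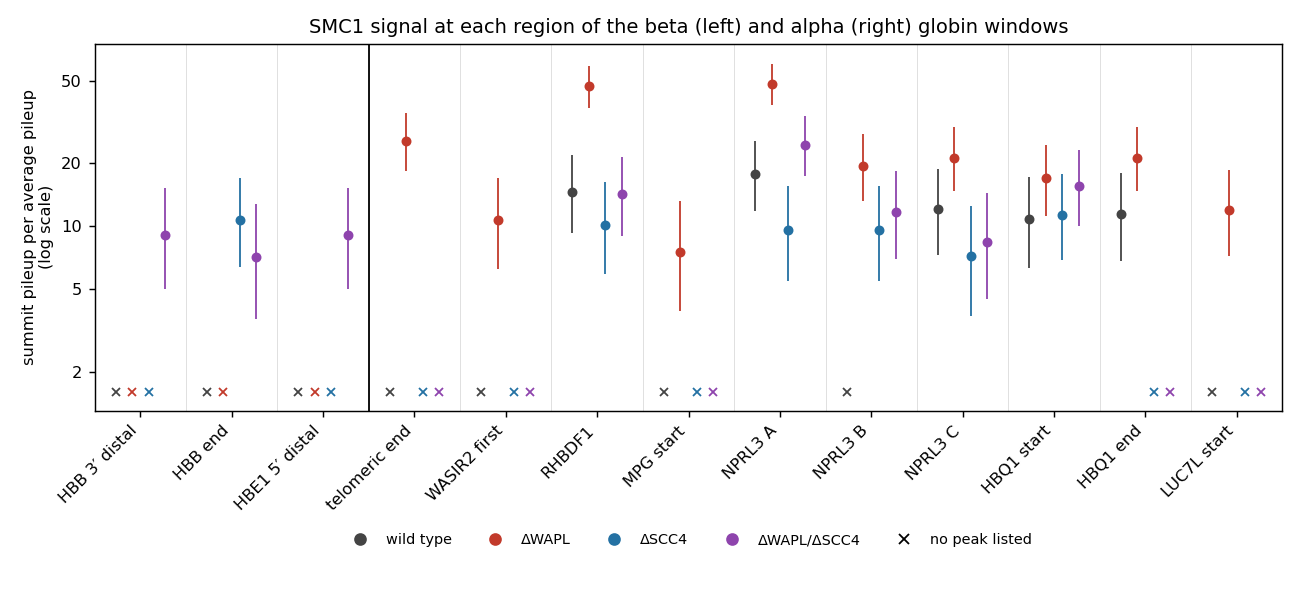
SMC1 signal, the summit pileup divided by the average pileup of the library, on a log scale for the 3 beta regions (left of the black line) and the 10 alpha regions, with 1 point per genotype. Bars are 95% exact Poisson intervals of the pileup and crosses mark genotypes with no listed peak. ΔWAPL stood highest at every alpha region where it had a peak, with 47.1 at RHBDF1 and 48.3 at NPRL3 A, and had no peak at the beta regions.

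In ΔSCC4 cells SMC1 was lower than in wild-type cells at 3 of the 4 alpha sites where both had it. The ΔSCC4 to wild-type ratio was 0.697 at RHBDF1, 0.539 at NPRL3 A and 0.595 at NPRL3 C, and 1.05 at the HBQ1 start, with a median of 0.646 over the 4 regions and 0.817 over all 11130 regions. The signal was at least 1.5-fold lower at 2 of the 4, against 24.5% of all, and by fold enrichment at 1 of the 4, against 12.3%. Each of the 4 intervals included 1, so no single site differed by more than counting error.

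In ΔWAPL/ΔSCC4 cells SMC1 was lower than in ΔWAPL cells at all 5 shared sites. The ratio of ΔWAPL/ΔSCC4 to ΔWAPL was 0.303 at RHBDF1 (0.179 to 0.493), 0.510 at NPRL3 A (0.336 to 0.761), 0.395 at NPRL3 C (0.191 to 0.768), 0.600 at NPRL3 B (0.316 to 1.11) and 0.918 at the HBQ1 start (0.507 to 1.65). The first 3 intervals excluded 1. The signal was at least 1.5-fold lower at 4 of the 5 regions, against 32.5% of all, and the median was 0.510 beside 0.795 for all 23181 regions. By fold enrichment 3 of the 5 were at least 1.5-fold lower, against 13.6% of all, the median was 0.654, and the ratio at the HBQ1 start was 1.31. At RHBDF1 only 0.522% of all regions had a lower ratio. Against wild-type cells the ΔWAPL/ΔSCC4 ratios had a median of 1.18 over 4 regions, beside 1.28 for all, and each interval included 1.

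**Figure D4:**
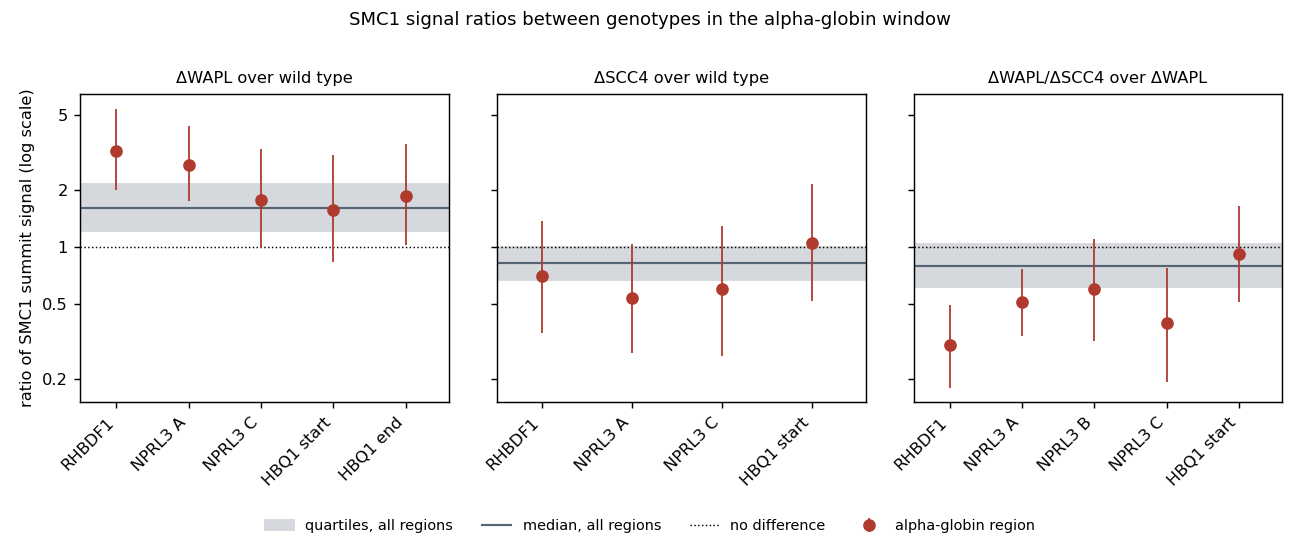
Ratios of SMC1 signal between genotypes, on a log scale, for the alpha regions with a peak in both libraries (red, with 95% exact intervals for counting error) over the median (line) and quartiles (grey band) of all SMC1 regions compared. RHBDF1 and NPRL3 A lay above the band at 3.23 and 2.72 for ΔWAPL over wild-type, and for ΔWAPL/ΔSCC4 over ΔWAPL RHBDF1 was the lowest point, below the band at 0.303.

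ΔWAPL cells had SMC1 at 10 alpha regions, and 5 of them had no wild-type peak, against 48.9% of all ΔWAPL regions. In ΔWAPL/ΔSCC4 cells 5 of the 10 had no peak, against 31.5% of all. SMC1 regions seen in ΔWAPL alone numbered 4 of the 13 in both loci, against 24.3% of all. The largest of them lay at the telomeric end, with 41 reads and a fold enrichment of 16.2. CTCF was there in every genotype, with 77, 77, 72 and 76 reads. The region at WASIR2 held 17 SMC1 reads in ΔWAPL cells and 25, 24, 23 and 30 CTCF reads. Both places are partly repeated in the genome, as given above.

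The other 2 regions with SMC1 in ΔWAPL alone had no CTCF peak in any genotype and lay at starts of genes outside the globin family. One, chr16:128036-128243, held 12 reads and its summit lay 14 bp from a start of MPG, which encodes a DNA repair glycosylase. The other, chr16:279032-279375, held 19 reads and lay 78 bp from a start site of LUC7L. Over the whole ΔWAPL list 83.8% of the SMC1 peaks without CTCF lay within 1 kb of a start site (95% Wilson interval 82.8% to 84.7%).

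CTCF had a peak in all 4 genotypes at 11 of the 18 regions, 9 alpha and 2 beta, against 64.2% of all CTCF regions. The highest pileup of either locus was at NPRL3 A, with 146, 141, 132 and 148 reads, and RHBDF1 held 92, 110, 96 and 92. The signal in ΔWAPL cells differed at least 1.5-fold from wild-type at 2 of 15 regions, HBB 3′ distal (higher) and the HBQ1 start (lower), against 21.2% of all, and by fold enrichment at 0 of 15, against 7.76%. Over the alpha regions the ratios ran from 0.630 to 1.23, and the intervals lay below 1 at 3 of 12, NPRL3 A, NPRL3 B and the HBQ1 start. The median ratio over the 12 alpha regions was 0.791 beside 0.829 over all regions. In ΔSCC4 cells 1 of 12 regions, HBE1 5′ distal, differed that much, against 23.5% of all, as it did by fold enrichment, against 10.1%, and the alpha median over 10 regions was 0.835 beside 0.802.

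ΔSCC4 cells lacked CTCF peaks at 4 regions that had them in the 3 other genotypes, 1 beta and 3 alpha, against 6.89% of all CTCF regions. These were the HBB 3′ distal region, the LUC7L end with 13, 13 and 22 reads in the 3 other libraries, the AXIN1 end with 9, 14 and 15 reads, and the AXIN1 intron with 14, 20 and 14 reads. All were weak, and the lowest CTCF pileup listed at the average background was 7 reads in the ΔSCC4 library. None of the alpha ones carried SMC1 in any genotype. Conversely 1 of the 18 CTCF regions, the second at WASIR2, lacked a peak in ΔWAPL cells alone, against 1.11% of all. It held 16, 21 and 14 reads in the other genotypes.

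**Figure D5:**
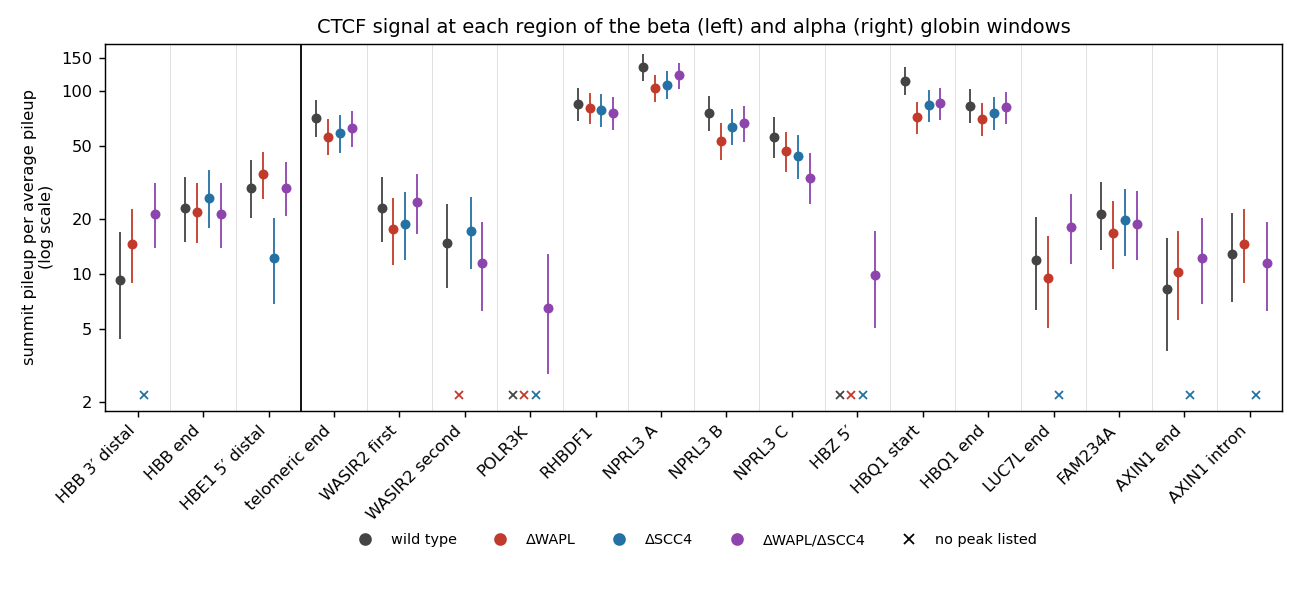
CTCF signal, the summit pileup divided by the average pileup of the library, on a log scale for the 3 beta regions (left of the black line) and the 15 alpha regions, with 95% exact Poisson intervals and crosses where no peak was listed. The strong sites from RHBDF1 to NPRL3 C and at HBQ1 had peaks in all genotypes, while the ΔSCC4 point was low at the HBE1 5′ distal region and missing at the HBB 3′ distal, LUC7L end and AXIN1 regions.

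Matches were searched only within 50 bp of the strongest CTCF summit of each region. Summits near the match were therefore largely fixed by that search, and the offsets only describe their spread. Along the direction of the match, the 47 CTCF summits of the matched regions had a median offset of -8 bp and the 24 SMC1 summits there one of 2 bp. The SMC1 offsets ran from -103 to 89 bp. Over SMC1 peaks at CTCF summits on other chromosomes, matched by the same search, the medians were 0 to 4 bp, by genotype.

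The genes of the erythroid transcription and haem programme were looked at for comparison, as 15 loci with 10 kb on each side. SMC1 was listed at 8, 7, 4 and 8 of them, with 11, 14, 4 and 11 peaks. The whole SMC1 lists held 18542, 33952, 12779 and 26558 peaks, and 39.6% of all wild-type SMC1 regions had no ΔSCC4 peak. The 4 erythroid loci with SMC1 in ΔSCC4 cells had it in every genotype. CTCF peaks at the 15 loci numbered 18, 17, 18 and 16. The erythroid factor genes GATA1, KLF1, TAL1, LDB1 and ZBTB7A, the alpha-globin chaperone gene AHSP and the anion exchanger gene SLC4A1 had no SMC1 peak in any genotype. GFI1B, which encodes a transcriptional repressor acting in the erythroid and megakaryocytic lineages, had 1, 3, 0 and 2 SMC1 peaks. The highest fold enrichment there was 11.6, in ΔWAPL cells. BCL11A, the repressor of foetal globin, had 3, 3, 0 and 2 SMC1 peaks. ALAS2, which encodes the first enzyme of erythroid haem synthesis, had 1, 0, 0 and 1. It was the only 1 of the 8 loci with wild-type SMC1 that had none in ΔWAPL cells. Over all regions, 17290 of the 18442 with wild-type SMC1 also had it in ΔWAPL cells.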

How the data were processed

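ChIP-seq peak lists of SMC1, CTCF and IgG in 4 HAP1 genotypes were analysed, 1 library per group, grouped by title. The authors sheared chromatin, sequenced single-end 65 bp reads, mapped them to hg19 with Bowtie2 and called peaks with MACS2 2.1.1, with IgG named as the control; the calling threshold and Bowtie2 filters were not given in the sources used here. The deposited fold enrichment is a ratio of summit pileup to local background, and −log10 p and −log10 q were deposited as computed by that caller at the summit. Pileups were recovered as whole numbers that solve the fold enrichment and −log10 p together (within 0.01), for 100% of SMC1 and CTCF peaks. The recovered backgrounds were whole numbers of the library's own reads per 10 kb in 100% of tested peaks, as in calling without a scaled control.

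Members were peaks with the summit in either window. Peaks sharing at least 1 bp were joined. Ratios used the pileup over the library's average, with exact binomial intervals, pileups had exact Poisson and shares Wilson intervals, all at 95% and for counting error only. A region counted as changed at 1.5-fold. Gene positions came from GENCODE 44 on GRCh37, canonical transcripts where not stated otherwise. Nearest genes were those whose body held the summit, or else the nearest body. The named genes were the globin genes, their coding neighbours in the windows and the 15 erythroid loci, of which 1 is not reported here by itself. Members and lists were chosen with earlier results of these data known. Copies of 65 bp stretches were counted on both strands of chromosomes 1 to 22, X and Y. Scripts were tested on simulated data and used Python 3.11.15, numpy 2.4.6, pandas 2.3.3, scipy 1.17.1 and matplotlib 3.10.9.

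The alternatives tried were −log10 q of at least 5 or 10, a fold enrichment minimum of 5, dropping peaks over IgG peaks, merging within 500 bp, intervals reaching into a window, other overlap rules, fold enrichment in place of pileup, a motif threshold of 1% and other gene sets.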

Additional observations from a re-analysis of the deposited data

Results flagged for a closer look

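The number of CTCF peaks in the alpha-globin window differed in opposite directions with and without the other gene. On the loss of SCC4 it went from 13 in wild-type to 10 in ΔSCC4 cells, and from 12 in ΔWAPL to 15 in ΔWAPL/ΔSCC4 cells. Read as the loss of WAPL, it went from 13 to 12 where SCC4 was present, and from 10 to 15 where it was missing. With 1 library per genotype the difference was not tested. The whole CTCF lists differed in the same directions, from 43050 to 37625 peaks and from 45798 to 47608 on the loss of SCC4, though on the loss of WAPL they were larger in both cases. The peaks that made up the difference in the window were weak, with 8 to 22 reads at the summit. At a −log10 q of at least 10 each genotype had 10 alpha CTCF peaks, so that no difference in number remained. The sites still differed, as 9 regions then had a peak in all 4 genotypes.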

How the results depend on the processing

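Each count and median was recomputed under the alternatives listed for it, which for the medians were fold enrichment, removal of peaks over IgG peaks and, where peaks remained, a −log10 q of at least 10. Of these values 201 stayed within 1.5 times the main count or within the counting interval of the main median, 28 moved beyond it and 1 moved beyond it and crossed 1. None of those recomputed moved on merging within 500 bp, intervals reaching into a window, or the other overlap rules. Removal of peaks over IgG peaks could move none, because no IgG list had a peak in either window. Its 38 values are among the 201 and show nothing about stability. Nor could a peak count of 0 rise under a stricter limit. At a −log10 q of at least 10 the SMC1 peaks of the beta window went to 0 in both lines without SCC4, and those of the alpha window to 2 in wild-type cells, 0 without SCC4 and 3 without both proteins, all at CTCF peaks. CTCF peaks of the beta window in ΔSCC4 cells went to 1. SMC1 regions in all 4 genotypes went to 0 in the alpha window, SMC1 regions of ΔWAPL/ΔSCC4 alone to 0 in the beta window, CTCF regions in all 4 genotypes to 1 in the beta window and those missing in ΔSCC4 alone to 0 in the alpha window. CTCF regions of ΔWAPL/ΔSCC4 alone in the alpha window went from 2 to 0 at a −log10 q of at least 5, 1 at 10 and 0 at a fold enrichment of at least 5. The alpha SMC1 median of ΔWAPL over wild-type was 2.97 over 2 regions at a −log10 q of at least 10. With fold enrichment in place of pileup it was 1.42, that of ΔWAPL/ΔSCC4 over ΔWAPL was 0.654, and the alpha CTCF medians were 0.957 for ΔWAPL and 0.928 for ΔSCC4 over wild-type. The CTCF median of ΔWAPL/ΔSCC4 over ΔWAPL turned from 1.17 to 0.951; the cause was not tested. Inside the interval, 2 beta CTCF medians also crossed 1, that of ΔSCC4 over wild-type from 0.774 to 1.13 over 1 region at a −log10 q of at least 10, and that of ΔWAPL/ΔSCC4 over ΔWAPL from 0.974 to 1.02 by fold enrichment. Counted by fold enrichment, a choice added after seeing the data, regions past 1.5-fold went from 5 to 2 for SMC1 in ΔWAPL, from 2 to 1 for SMC1 in ΔSCC4 and from 2 to 0 for CTCF in ΔWAPL. Of the 31 regions 3 had a listed globin gene as the nearest, 5 with coding genes only, 1 by start site and 2 by canonical transcripts of coding genes, also added after seeing the data. No paired analysis was possible because each group held 1 library and the results come from no test. Depth limits all of this: the SMC1 peaks of the beta window held 11 to 18 reads, and 9 was the lowest pileup listed at the average background.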
